A study of Mus musculus with 9 samples.

Results

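miR-296 and miR-298 are a pair of microRNA (miRNA) hairpins at the imprinted Gnas locus of the mouse, and their mature arms were measured in fat under the skin. The arms were chosen by name, and 3 of the 4 arms listed (miR-296-5p, miR-296-3p and miR-298-5p) had a row among the 860 mature miRNAs of each library. miR-298-3p was not analysed here. All 3 arms were among the 489 miRNAs that passed a filter on low values. The names were put forward with the genotype differences of these libraries already known. Differences between genotypes are therefore given as a description of the mice, without p-values for the arms.

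Subcutaneous adipose tissue of 9 mice gave 1 small RNA library per mouse, with 3 mice in each of the genotypes WT, Hete KO and Homo KO. The knockout, made in endothelial cells, the lining of blood vessels, was heterozygous in the Hete KO mice and homozygous in the Homo KO mice. It concerned the gene for AGO1, an Argonaute protein that holds mature miRNAs and guides them to their target mRNAs. The WT mice were littermates. Every mouse, WT included, was sampled at 24 weeks of age after 16 weeks on a diet rich in fat and sucrose that began at 8 weeks. The labels do not say which Cre line removed the gene, and they give no strain. The whole tissue was sampled, so that endothelial cells are one cell type among several in each library. The tables hold no mRNA, and the knockout could not be checked from them.

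Imprinted genes are read mainly from the copy inherited from 1 parent. At the Gnas locus, Gnas encodes the stimulatory G protein subunit that links receptors such as the beta-adrenergic receptor to cyclic AMP, a signal that drives the breakdown of stored fat in adipocytes. The noncoding RNA Nespas is transcribed against it from the paternal copy, and miR-296 and miR-298 have been reported in mice to be expressed from the paternal copy too. In human endothelial cells miR-296 is known as a growth-factor-induced miRNA that lowers HGS, a protein that sorts growth factor receptors for degradation. Mouse miR-298 is known to bind the mRNA of Bace1, a protease that cuts the amyloid precursor protein.

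The hairpins are printed because both arms of miR-296 and the 5p arm of miR-298 are cut from them, and their mature arms stand in capitals (RefSeq, GRCm38.p6, read 5′ to 3′ on the minus strand of chromosome 2).
Mir296 (chr2:174267047-174267125): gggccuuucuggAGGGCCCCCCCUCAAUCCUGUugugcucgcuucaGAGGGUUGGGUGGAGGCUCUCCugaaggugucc
Mir298 (chr2:174267504-174267585): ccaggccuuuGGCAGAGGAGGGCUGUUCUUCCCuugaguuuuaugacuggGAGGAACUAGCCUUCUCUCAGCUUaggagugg

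The hairpins lie 378 bases apart on the same strand, with Mir298 first in the direction of transcription. In the GENCODE vM21 annotation of GRCm38, 0 other genes overlapped them, so that they are intergenic there rather than exonic or intronic. The annotated end of Nespas (chr2:174281237-174295436, minus strand) lies 13.7 kb upstream of Mir298, and Gnas (chr2:174284320-174346744, plus strand) begins 16.7 kb away. On the other side the nearest protein-coding gene, Npepl1, lies 144.0 kb away. By position the label of the locus therefore held, while no annotated transcript of this release hosts the hairpins.

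**Figure D1:**
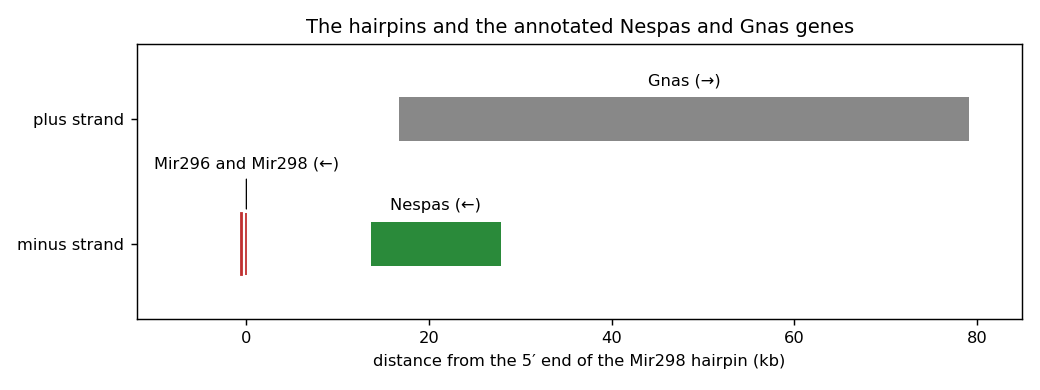
The Mir296 and Mir298 hairpins with the annotated Nespas and Gnas genes, as distance in kb from the 5′ end of the Mir298 hairpin, with arrows for the strand. Nespas lies 13.7 kb and Gnas 16.7 kb from the hairpins, and neither reaches them.

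The mature arms are shown with the seed, bases 2 to 8, in capitals, since the seed is the stretch that pairs with target mRNAs.
miR-296-5p: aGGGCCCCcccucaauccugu
miR-296-3p: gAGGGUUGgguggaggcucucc
miR-298-5p: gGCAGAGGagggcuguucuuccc

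The seeds differed from each other, and among 1679 mature mouse sequences in RefSeq 0 others shared any of them. The arms therefore belong to no seed family among the sequences searched, which covered 698 of the 860 miRNAs measured. What the arms share is position and base composition. G and C made up 66.7% of miR-296-5p, 68.2% of miR-296-3p and 65.2% of miR-298-5p, against a median of 49.0% over the 698 miRNAs of the tables that had a RefSeq sequence. The arms are 21, 22 and 23 bases long, so that their levels can be set side by side almost free of length.

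Levels are given as deposited, on a log2(x + 1) scale that the authors had made equal in distribution between libraries. A value is thus a place in a shared ranking, and the number of reads behind it is unknown. All 3 arms were rare. By mean level miR-296-5p had 382 of the 860 miRNAs above it, miR-298-5p 408 and miR-296-3p 433. Taken back to a linear scale, the 3 arms together held 0.00172%, 0.00205% and 0.00293% of the summed abundance in WT replicates 1, 2 and 3. They held 0.000979%, 0.000254% and 0.0018% in Hete KO and 0.00134%, 0.000738% and 0.000866% in Homo KO. Every Homo KO mouse lay below every WT mouse in this sum, and Hete KO replicate 3 lay within the WT range.

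miR-296-5p, the more abundant arm of its hairpin, was at 5.55, 5.90 and 6.09 in WT replicates 1, 2 and 3. In Homo KO it was at 5.38, 4.52 and 4.18. The Homo KO mice all lay below the WT mice, by a margin in replicate 1 that was small beside the spread within Homo KO. Hete KO had 4.68, 3.42 and 5.61, and its replicate 3 was higher than WT replicate 1, so that these groups overlapped. Means were 5.85 ± 0.27 in WT, 4.57 ± 1.10 in Hete KO and 4.69 ± 0.62 in Homo KO (SD, n = 3 each).

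miR-298-5p, from the neighbouring hairpin, was at 5.29, 5.57 and 6.05 in WT. It was at 4.74, 4.04 and 3.77 in Homo KO, again without overlap with WT. In Hete KO it was at 5.09, 2.65 and 5.26, with replicates 1 and 3 just under the lowest WT mouse and replicate 2 far below it. Means were 5.64 ± 0.38 in WT, 4.33 ± 1.46 in Hete KO and 4.18 ± 0.50 in Homo KO (SD, n = 3 each).

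miR-296-3p, the other arm of the miR-296 hairpin, was at 4.98, 5.04 and 6.02 in WT. In Homo KO it was at 4.58, 3.68 and 4.86, so that its highest mouse was just below the lowest WT mouse. Hete KO held the widest spread, with 3.11, 1.59 and 5.17, and its replicate 3 lay inside the WT range. Means were 5.34 ± 0.58 in WT, 3.29 ± 1.80 in Hete KO and 4.38 ± 0.62 in Homo KO (SD, n = 3 each).

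**Figure D2:**
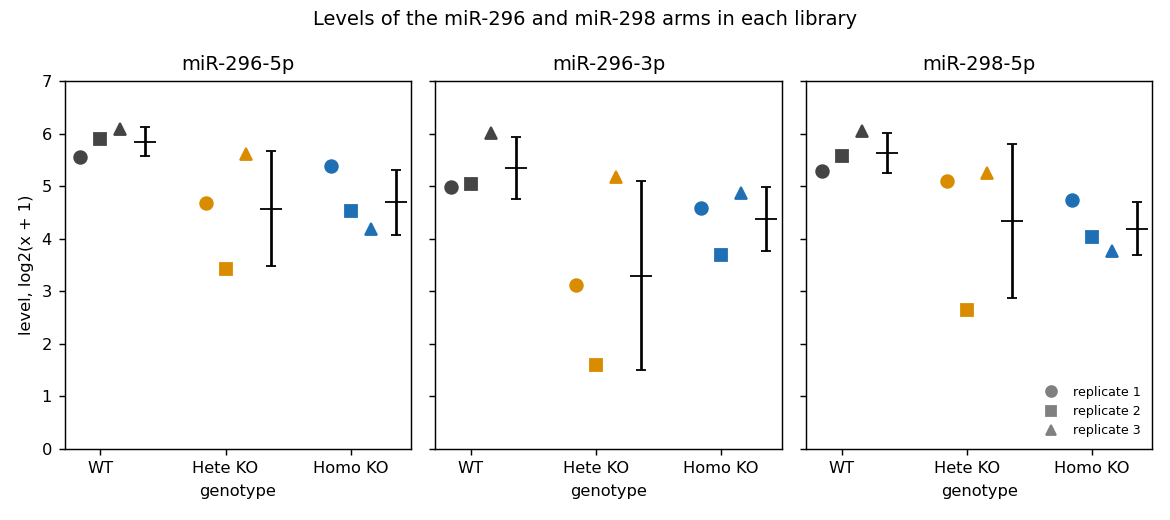
Levels on the log2(x + 1) scale of the 3 arms in each library by genotype, with 1 symbol per replicate number and bars for the mean ± SD over 3 mice. WT mice lie at 4.98 or higher in all panels, Homo KO mice lie below the WT mice in each, and Hete KO replicate 2 is the lowest library in each.

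The order of the genotypes was the same at its top for all arms, with WT highest. For miR-296-5p and miR-298-5p the means of Hete KO and Homo KO differed by less than the SD within either group. For miR-296-3p the Hete KO mean lay lowest, but Homo KO lay within the Hete KO range. The arms also varied more between mice than most miRNAs did. Over the 9 libraries the SD was 0.89 for miR-296-5p, 1.33 for miR-296-3p and 1.05 for miR-298-5p, against a median SD of 0.34 over the 489 tested miRNAs. By SD they stood 26th, 17th and 23rd of the 489. This SD includes the differences between genotypes that were known when the arms were chosen, and many of the 489 are far more abundant. The places are therefore a description.

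The comparison of Homo KO with WT asks how adipose miRNAs differ in that knockout genotype. The difference of the means was -1.15 ± 0.52 for miR-296-5p, -0.97 ± 0.78 for miR-296-3p and -1.45 ± 0.63 for miR-298-5p on the log2 scale (SE from the limma fit over all 489 miRNAs and all 9 libraries). That fit shares its estimate of the spread across the genotypes, the wide Hete KO group included. With only the groups compared in the fit, the SE was 0.33, 0.41 and 0.33 in the same order. For Hete KO against WT it was then 0.53, 0.86 and 0.69. As a ratio of geometric means of x + 1, WT was 2.22 times Homo KO for miR-296-5p, 1.96 times for miR-296-3p and 2.74 times for miR-298-5p. The median difference over all tested miRNAs was 0.07. Of the 489 miRNAs, 9 had a more negative difference than miR-298-5p, 14 than miR-296-5p and 18 than miR-296-3p. All 3 arms were lower in Homo KO without overlap, as were 14.3% of all tested miRNAs, and nothing is read from that count because the arms were chosen with this comparison known. None of the 3 arms passed the limma test (Benjamini-Hochberg adjusted p under 0.05), which called 3.27% of the tested miRNAs (16 of 489). Without adjustment, 117 of the 489 had a p under 0.05.

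Single libraries moved the difference of miR-296-3p. Leaving out WT replicate 3 brought it to -0.63 and leaving out Homo KO replicate 2 brought it to -0.62. Each library held between 63 and 152 miRNAs at its own lowest value, a count that may follow depth, which is not known. With this lowest-value count as a covariate, the differences were -0.53 ± 0.64 for miR-296-5p, -0.42 ± 0.69 for miR-298-5p and 0.47 ± 0.77 for miR-296-3p (SE). The last changed sign, and each was smaller in size than its SE.

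Hete KO was compared with WT to see what the other knockout genotype shows, with the same WT mice as above. The difference of the means was -1.28 ± 0.52 for miR-296-5p, -2.05 ± 0.78 for miR-296-3p and -1.30 ± 0.63 for miR-298-5p on the log2 scale (SE). That of miR-296-3p was the most negative of all 489 tested miRNAs, with 1 miRNA more negative than miR-298-5p and 3 more negative than miR-296-5p, beside a median of -0.02 over all. The rank of miR-296-3p rests on low values, down to 1.59 in Hete KO replicate 2, at rank 626 of 860. With 5 in place of 1 added before the log, the difference of miR-296-3p was -1.55. Only miR-298-5p was lower without overlap, as were 8.59% of all tested miRNAs. None of the 3 arms passed the limma test, which called 0.409% of the tested miRNAs (2 of 489), with 77 at an unadjusted p under 0.05. Hete KO replicate 2 held much of the difference. Without it the differences were -0.70 for miR-296-5p, -1.20 for miR-296-3p and -0.46 for miR-298-5p. With the lowest-value count as a covariate they were -0.66 ± 0.64, -0.63 ± 0.77 and -0.28 ± 0.68 in the same order (SE).

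Homo KO against Hete KO compares the knockout genotypes with each other. The difference was 0.13 ± 0.52 for miR-296-5p, 1.08 ± 0.78 for miR-296-3p and -0.15 ± 0.63 for miR-298-5p (SE, log2 scale), and for 0 of the 3 arms were the groups without overlap, against 12.3% of all tested miRNAs. The value of miR-296-3p was the most positive of the 489. It was 0.24 without Hete KO replicate 2, 2.02 without Hete KO replicate 3 and 0.54 when the mean of 4 muscle miRNAs was a covariate. With 5 in place of 1 added before the log it was 0.71. For the other arms the sign changed with the library left out, from -0.45 to 0.64 for miR-296-5p and from -0.99 to 0.31 for miR-298-5p. In this comparison limma called 0% of the tested miRNAs (0 of 489), with 41 at an unadjusted p under 0.05.

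**Figure D3:**
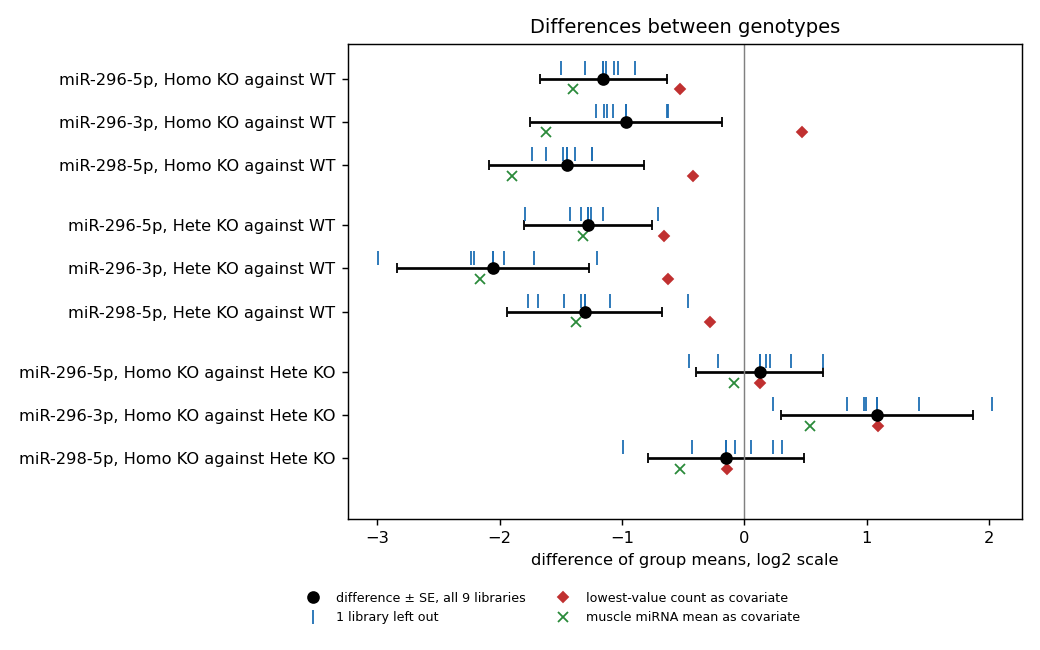
Differences of group means on the log2 scale for each arm and comparison: black points with bars show the value and its SE over 9 libraries, blue ticks the values with 1 library left out, red diamonds those with the lowest-value count as a covariate and green crosses those with the muscle mean as a covariate. Both comparisons with WT lie below 0 except for the red diamond of miR-296-3p in Homo KO at 0.47.

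How far the arms varied together from mouse to mouse was taken from the 9 libraries. The arms were chosen with their shared genotype differences known, so that part of any correlation over all 9 libraries comes with the choice, and those values are a description. The test was therefore made on deviations from the genotype means, permuted within genotypes, a choice made after seeing the data. miR-296-5p and miR-298-5p, from separate hairpins, had a Pearson r of 0.95 and a Spearman rho of 0.97 over the 9 libraries. In deviations from the genotype means r was 0.93 (exact permutation test within genotypes, two-sided, p = 0.00463, the smallest that its 216 permutations can give, adjusted 0.0139 over 3 pairs). Without the libraries farthest from the median, Hete KO replicate 2 and Homo KO replicate 3, r over the others was 0.85. miR-298-5p was lower than miR-296-5p in 8 of 9 libraries, with a difference between -0.77 and 0.42 and a median of -0.35. Hete KO replicate 1 was the library where it was higher.

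For the arms of the miR-296 hairpin r was 0.85 and rho 0.87 over the 9 libraries. In deviations r was 0.81, which did not pass the test (exact permutation test within genotypes, two-sided, p = 0.134, adjusted 0.185). Without Hete KO replicate 2 and Homo KO replicate 3 r over the others was 0.94. miR-296-5p exceeded miR-296-3p in 8 of 9 libraries, by a median of 0.80 on the log2 scale. The difference ran from -0.68 in Homo KO replicate 3, the library where the 3p arm was higher, to 1.83 in Hete KO replicate 2. miR-296-3p and miR-298-5p had an r of 0.78 and a rho of 0.80, with r = 0.77 in deviations (exact permutation test within genotypes, two-sided, p = 0.185, adjusted 0.185) and r = 0.76 without Hete KO replicates 1 and 2. Without Hete KO replicate 2 alone, r over the other 8 libraries was 0.69 for the arms of miR-296 and 0.50 for miR-296-3p and miR-298-5p, while it was 0.91 for miR-296-5p and miR-298-5p.

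**Figure D4:**
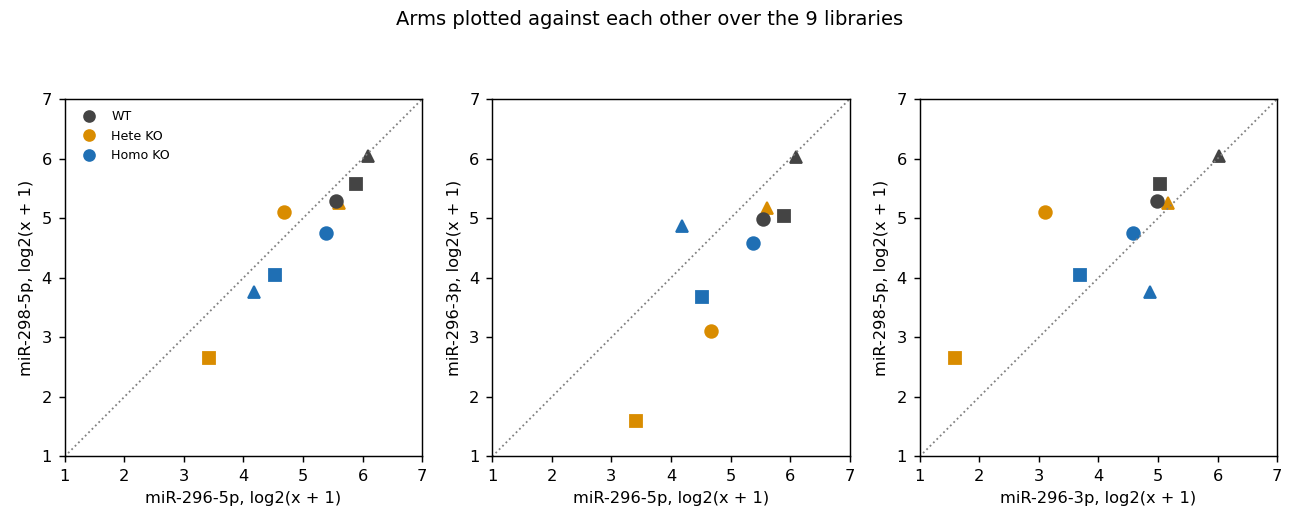
Each pair of arms plotted over the 9 libraries on the log2(x + 1) scale, with colours for genotype, symbols for replicate number as in the plot of levels, and a dotted line where both arms are equal. The points of miR-296-5p and miR-298-5p follow the line closely (r = 0.95), and between the arms of miR-296 the largest distance from the line is that of Hete KO replicate 2, a difference of 1.83.

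By Pearson r over the 9 libraries, as a description, the miRNA whose pattern was most like that of miR-296-5p among all other tested miRNAs was miR-298-5p, and the reverse also held. Next for miR-296-5p came miR-466f-3p (r = 0.87) and miR-23a-3p (r = 0.85), and miR-296-3p was 4th. For miR-298-5p the next were miR-139-5p (r = 0.93) and miR-23a-3p (r = 0.91), and miR-296-3p was its 17th. miR-296-3p was most like miR-466f-3p (r = 0.86), followed by miR-296-5p and miR-467e-3p (r = 0.84). These neighbours moved over a narrower range, with an SD of 0.26 for miR-23a-3p, 0.22 for miR-139-5p and 0.49 for miR-466f-3p on the log2 scale.

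The miRNAs nearest in level mostly had another order of the genotypes. Directly above and below miR-296-5p by mean level stood miR-188-5p, with means of 5.26 in WT, 5.01 in Hete KO and 4.86 in Homo KO, and miR-28b, with 4.78, 5.18 and 5.11. Beside miR-296-3p stood miR-34a-3p (4.19, 4.40 and 4.43) and miR-15a-3p (4.33, 4.30 and 4.38). Beside miR-298-5p stood miR-141-3p (3.50, 5.54 and 5.18) and miR-215-5p (3.25, 5.74 and 5.17), both lowest in WT. Over 48 tested miRNAs with at least 60% G and C, the median deviation from the mean lay between -0.08 and 0.08 in each of the 9 libraries, which describes their common shift and not how far single miRNAs varied.

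The lowest-value count was set beside the arms. It was 70, 104 and 63 in WT, 101, 152 and 105 in Hete KO and 116, 141 and 102 in Homo KO. Over the 9 libraries Pearson r with this count was -0.73 for miR-296-5p, -0.78 for miR-296-3p and -0.81 for miR-298-5p, and Spearman rho was -0.57, -0.57 and -0.70, as a description. Without WT replicate 3 and Hete KO replicate 2, at the ends of the count, r was -0.36, -0.42 and -0.51. The relation was thus weaker but still negative, over a narrower range of counts. In deviations from the genotype means r was -0.49, -0.73 and -0.65, and none passed (exact permutation tests within genotypes, two-sided, p = 0.343, 0.102 and 0.153, adjusted 0.411, 0.352 and 0.352 over 6 relations). Among the 4 libraries with counts from 101 to 105, miR-296-5p ran from 4.18 in Homo KO replicate 3 to 5.90 in WT replicate 2. In WT replicate 2, Hete KO replicates 1 and 3 and Homo KO replicate 3, in that order, miR-296-3p was at 5.04, 3.11, 5.17 and 4.86 and miR-298-5p at 5.57, 5.09, 5.26 and 3.77. For these arms Homo KO replicate 3 lay within the range of the other 3 libraries for miR-296-3p and below it for miR-298-5p. Whether the count follows depth, and its part in the genotype differences, was not tested.

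**Figure D5:**
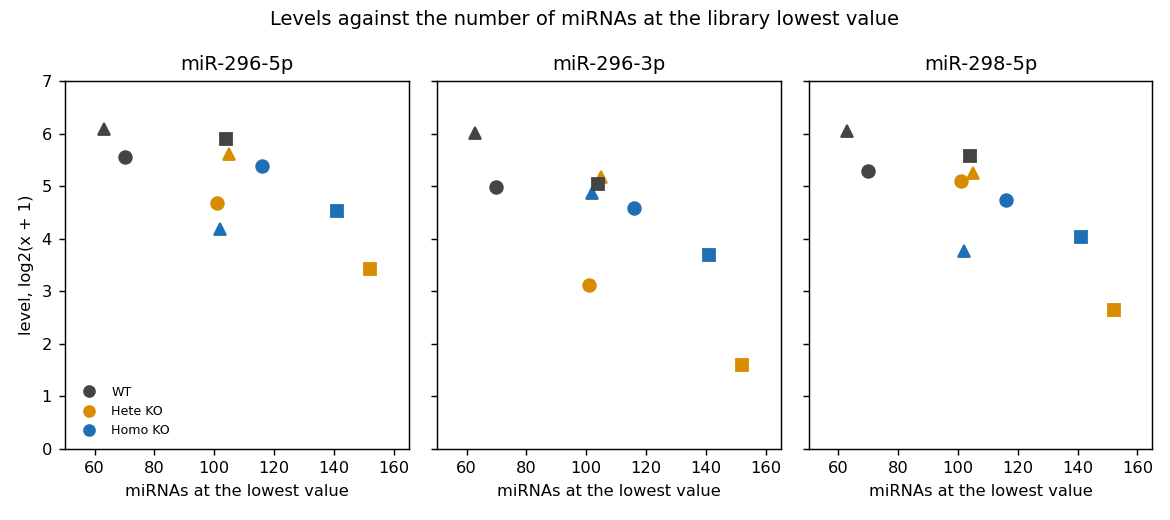
Level of each arm on the log2(x + 1) scale against the number of miRNAs at the library's lowest value, with colours for genotype and symbols for replicate number. Hete KO replicate 2, with a count of 152, is the lowest point in each panel, and WT replicate 3, with 63, is the highest.

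RNA of other cell types also differed between libraries, and fewer cells of a type cannot be told apart from less RNA per cell in whole tissue. The mean of 4 skeletal muscle miRNAs was 13.40, 13.73 and 7.56 in WT, 10.04, 14.35 and 8.76 in Hete KO and 11.68, 6.17 and 7.40 in Homo KO. Its r with the arms was -0.03 for miR-296-5p, -0.33 for miR-296-3p and -0.10 for miR-298-5p, with rho of 0.03, -0.20 and 0.07. Without Hete KO replicate 2 and Homo KO replicate 2, r was 0.34, -0.19 and 0.24. Deviations from the genotype means gave r = -0.33, -0.56 and -0.48 (exact permutation tests within genotypes, two-sided, p = 0.440, 0.176 and 0.236, adjusted 0.440, 0.352 and 0.354).

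Both arms of miR-126a, the defining miRNA of endothelium, had negative differences in both knockout genotypes. Their summed level was 17.81 to 18.20 on the log2 scale in WT, 17.10 to 17.74 in Hete KO and 17.64 to 17.77 in Homo KO. It was lower without overlap in both knockout genotypes, by a small margin. Singly, 8.59% of all tested miRNAs were lower without overlap in Hete KO and 14.3% in Homo KO. Neither arm of miR-126a was called by limma in any comparison. Erythroid miRNAs ran the same way, with summed levels of 13.485 to 14.15 in WT, 12.14 to 13.46 in Hete KO and 13.03 to 13.480 in Homo KO, and 3 of 3 and 2 of 3 had negative differences in Hete KO and Homo KO. Epithelial and mammary miRNAs ran the other way, at 11.79 to 12.23 in WT, 12.90 to 12.97 in Hete KO and 12.80 to 12.96 in Homo KO, with 0 of 7 and 1 of 7 negative, and miR-203-3p was called higher in Homo KO. Adipocyte-rich miRNAs were at 19.16 to 19.26, 19.38 to 19.51 and 19.36 to 19.51 in the same order, with 0 of 4 negative in Hete KO and 2 of 4 in Homo KO. Leukocyte miRNAs were at 14.28 to 14.40 in WT, 14.05 to 14.57 in Hete KO and 14.60 to 14.96 in Homo KO, with 2 of 5 and 0 of 5 negative, and miR-142a-5p was called higher in Homo KO. Neural, liver, mural and stromal, and skeletal muscle sums overlapped between WT and each knockout genotype. Of the skeletal muscle miRNAs, 4 of 4 had negative differences in both knockout genotypes, with a median of -0.49 in Hete KO and -3.54 in Homo KO and none called. Negative were 1 of 3 neural and 1 of 4 mural and stromal miRNAs in each knockout genotype, and the liver miRNA in neither. Of all these markers, miR-206-3p alone was at the lowest value, in 1 library. Their part in the levels of miR-296 and miR-298 was not tested.

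Other imprinted miRNAs give the setting for the locus. In Homo KO against WT, 47 of 48 tested miRNAs of the maternally expressed Dlk1-Dio3 cluster had negative differences, beside 220 of 489 over all tested. Their median was -0.50 beside 0.07 over all. Of the 48, 1 was called lower, beside 3.27% of all tested miRNAs called in either direction. It was miR-154-5p (-0.87 ± 0.18, SE, limma adjusted p = 0.0400, named after its value was seen). The lists were chosen with earlier results known, and members of 1 cluster are not taken as separate observations. In Hete KO 37 of 48 were negative, beside 257 of 489 over all tested, with a median of -0.25 and none called. The most abundant members of the cluster, miR-379-5p and miR-411-5p, were at 11.75 ± 0.46 and 10.28 in WT (the latter alike in all 3 mice). They were at 11.83 ± 0.56 and 10.31 ± 0.28 in Hete KO, both slightly above WT, and at 11.55 ± 0.32 and 10.07 ± 0.24 in Homo KO (SD, n = 3 each). The Sfmbt2 cluster, expressed from the paternal copy in the placenta, had 3 of 15 tested members negative in Homo KO (median 0.34, 220 of 489 negative over all) and 13 of 15 in Hete KO (median -0.18, 257 of 489 over all), with none called. Its most abundant members were miR-669c-5p and miR-669a-5p, at 6.43 ± 0.24 and 6.21 ± 0.24 in WT. Related names are not always separate measurements, since miR-297a-3p, miR-297b-3p and miR-297c-3p had identical differences (-0.07 in Homo KO and -0.12 in Hete KO against WT). The Sfmbt2 counts may hold such repeats. From the intron of Mest, a paternally expressed gene, miR-335-5p was at 13.64 ± 0.17 in WT, 13.41 ± 0.44 in Hete KO and 13.65 ± 0.30 in Homo KO. Its partner arm miR-335-3p was at 13.45 ± 0.44, 12.66 ± 0.53 and 12.88 ± 0.41 (SD, n = 3 each), and neither was called. Of the H19 and Igf2 miRNAs, 2 of 4 were in the tables and 0 passed the filter, with miR-483-3p at 2.73 ± 0.16 and miR-483-5p at 1.93 ± 0.48 in WT.

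Among 32 miRNAs of endothelium and angiogenesis, all tested, 3 were called lower in Homo KO and none higher. Over all 489 tested, 8 were called lower and 8 higher, 3.27% in either direction. The list was chosen with earlier results of these data known, so that its counts are a description. Of the 32, 19 were negative, beside 220 of 489 over all, and their median was -0.15 beside 0.07. The called miRNAs of the list were miR-18a-5p, miR-221-3p and miR-503-5p, with log2 differences of -0.71, -0.96 and -0.79, named after their values were seen. In Hete KO 19 of 32 were negative, beside 257 of 489 over all, with a median of -0.23 beside -0.02 and none called. The most abundant of them, let-7f-5p and miR-126a-3p, differed by 0.23 ± 0.13 and -0.27 ± 0.19 in Homo KO (SE).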

How the data were processed

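Small RNA libraries of subcutaneous adipose tissue from 9 mice were used, 3 per genotype, grouped by the sample titles. Trizol extraction and the TruSeq Small RNA kit of Illumina were used, per the labels' protocols. The build was mm10, per the submitters' processing notes. How reads were aligned, counted and scaled is not given in the sources used here. Deposited values are on a log2 scale with 1 added (0 to 19.99), with the same highest value in every library, and were treated as quantile-normalized by the authors. Reads per library are unknown, so that no counting interval is given.

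miRNAs with a mean of at least log2(10 + 1) that exceeded the lowest value of their library in 3 or more libraries entered a fit with limma 3.58.1 (R 4.3.3) (all 9 libraries, no covariate, variance trend), called at a Benjamini-Hochberg adjusted p under 0.05. The filter kept 489 of 860. Of these steps, the limma fit of Homo KO against WT was tested on simulated data. The labels give no batch. The arms, the lists (imprinted, endothelium and angiogenesis, cell type markers) and the alternatives were chosen with earlier results of these data known. Named were the arms, their 3 nearest miRNAs by r, their level neighbours and the 2 most abundant miRNAs of each imprinted or angiogenic list. Figures were drawn with matplotlib 3.10.9.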

Additional observations from a re-analysis of the deposited data

How the results depend on the processing

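Leaving out the filter or the variance trend, fitting only the groups compared, the replicate block and leaving out a library of the third genotype do not change the difference of 2 group means by construction. Over the alternatives that did change it, 27 of 27 values of the arms in Hete KO against WT and 29 of 30 in Homo KO against WT were negative. The exception was miR-296-3p with the lowest-value count as a covariate (0.47). Where an arm was lower without overlap, leaving out a library or adding 5 before the log could not change its sign. This held for all 3 arms in Homo KO and for miR-298-5p in Hete KO. The alternatives also reuse the same libraries, for arms chosen with these differences known, so that nothing is read from the counts. In Homo KO against WT the lowest-value covariate gave -0.53 for miR-296-5p and -0.42 for miR-298-5p, and the muscle miRNA mean as a covariate gave -1.62 for miR-296-3p and -1.90 for miR-298-5p. In Hete KO against WT the lowest-value covariate gave -0.63 for miR-296-3p. The cause of these shifts was not tested. The stricter filter, a mean of at least log2(50 + 1), removed all 3 arms and gave no value. With 1 library left out, Homo KO against WT ran from -1.49 to -0.90 for miR-296-5p, from -1.21 to -0.62 for miR-296-3p and from -1.73 to -1.24 for miR-298-5p. Hete KO against WT ran from -1.80 to -0.70, from -2.99 to -1.20 and from -1.76 to -0.46.

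The count of called miRNAs in Homo KO against WT, 16 as reported, was 0 with the lowest-value covariate, 3 with the muscle covariate, 9 with no filter, 24 with the stricter filter, and 2 to 25 with 1 library left out. In Hete KO against WT, 2 as reported, it was 0 with the lowest-value covariate, 1 without a variance trend, 1 with only the groups compared, 7 with the stricter filter, and 1 to 24 with 1 library left out. The replicate numbers were tried as a block. It gave 25 calls in Homo KO against WT, 15 in Hete KO against WT and 0 between the knockouts. Of 9 same-numbered pairs, 5 had correlated deviations over 0.1 (range -0.28 to 0.55) and 1 of 9 libraries correlated best with its own number in both other genotypes, so that the numbers were not taken as pairs.

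Permuted over all 9 libraries, as first planned, the exact permutation p of r was 0.0002 for miR-296-5p and miR-298-5p, 0.00403 for the arms of miR-296 and 0.0128 for miR-296-3p and miR-298-5p (0.00023, 0.0116 and 0.0205 for deviations permuted across genotypes), while within genotypes the second and the third did not pass, with r in deviations of 0.81 and 0.77. Against the lowest-value count the adjusted p over all 9 libraries was 0.0524, 0.0397 and 0.0397 for miR-296-5p, miR-296-3p and miR-298-5p, by exact permutation. With that count removed by regression, also chosen after seeing the data, r was 0.90 for miR-296-5p and miR-298-5p, 0.65 for the arms of miR-296 and 0.41 for miR-296-3p and miR-298-5p. With 1 library left out r ran from 0.91 to 0.99, from 0.69 to 0.98 and from 0.50 to 0.90 in the same order.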
